A study of Mus musculus with 9 samples.

Results

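The neurotrophin and GDNF system was followed in the mouse spinal cord through 8 genes of 52550 in the count table: the ligands Bdnf, Ntf3 and Gdnf and the receptors Ngfr, Ntrk2, Ntrk3, Ret and Gfra1. They were chosen by name, and each symbol matched 1 Ensembl gene. RNA-seq had been performed on adult female C57BL/6N mice, 3 in each group, with 1 library per mouse. Sham mice underwent laminectomy alone, SCI mice received a contusion of the thoracic cord followed by intraperitoneal DMSO, and SCI+FIPI mice received the same contusion followed by daily intraperitoneal FIPI, a small-molecule inhibitor of phospholipase D. On day 7 a piece of cord spanning the epicenter was taken from every mouse. The libraries held between 20806000 and 24582377 counts per mouse. The drug reached the whole animal, the Sham group had no DMSO injection in the study's description, and the tissue was bulk cord, so fewer cells of a type and less RNA per cell cannot be told apart. Sham libraries carried central nervous tissue markers at high levels, with a summed level of 9269 to 10421 CPM (counts per 1000000 counts) over 14 neuron genes and of 32706 to 34281 CPM over 8 oligodendrocyte genes.

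Neurotrophins are small secreted dimers that keep neurons alive, guide axons and adjust synapses. BDNF acts through the receptor tyrosine kinase TrkB (Ntrk2), neurotrophin-3 acts mainly through TrkC (Ntrk3), and all neurotrophins, above all in their uncleaved pro-forms, bind the p75 receptor (Ngfr), which can support survival or trigger cell death depending on its partners. GDNF, a distant member of the TGF-beta superfamily, binds the lipid-anchored co-receptor GFRα1 (Gfra1), and this pair activates the tyrosine kinase Ret; in the cord, motor neurons are the classical cells that respond to it. Astrocytes carry much of the TrkB of the adult cord in a truncated form that lacks the kinase.

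Promoter sequence from RefSeq was matched for 6 of the 8 genes, and the windows searched were the 250 bases before each annotated start on GRCm38.p6. The 3 shown here belong to genes that passed both limits of the test after injury and each holds one of the short motifs searched, in capitals, on either strand: a TATA box (TATAAA), a GC box (GGGCGG), an AP-1 site (TGACTCA), a cAMP response element (TGACGTCA) or the first 5 bases of that element (TGACG), which every full element also contains. Across 32851 windows of the same length from all genes, TATAAA was present in 12.4%, GGGCGG in 32.7%, TGACTCA in 4.46%, TGACGTCA in 1.55% and TGACG in 17.8%. Gdnf has 2 RefSeq windows. The one shown (chr15:7809798-7810047, + strand) holds TATAAA and the reverse complement of TGACG, and the other (chr15:7813477-7813726) holds none of the 5 motifs. Neither adjoins the GENCODE start of Gdnf at chr15:7810846: the window shown ends before it with a gap, and the other lies inside the gene. Bdnf has 7 RefSeq windows, which need not cover all of its annotated starts, and among these 7 the one shown (chr2:109692186-109692435, + strand) is the only one with TGACG. The Ngfr window (chr11:95587736-95587948, − strand), cut short at the 3′ end where the GENCODE exon begins, holds 3 copies of GGGCGG in its 213 bases. The windows of Ntrk2 and Gfra1 held none of the 5 motifs, and both windows of Ntf3 held GGGCGG. A match is a description of the letters and does not show binding.
Gdnf: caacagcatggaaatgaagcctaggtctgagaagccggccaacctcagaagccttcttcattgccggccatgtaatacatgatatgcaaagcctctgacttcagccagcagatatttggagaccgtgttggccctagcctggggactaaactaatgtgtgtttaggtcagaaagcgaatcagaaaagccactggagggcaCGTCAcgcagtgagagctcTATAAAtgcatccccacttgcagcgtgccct
Bdnf: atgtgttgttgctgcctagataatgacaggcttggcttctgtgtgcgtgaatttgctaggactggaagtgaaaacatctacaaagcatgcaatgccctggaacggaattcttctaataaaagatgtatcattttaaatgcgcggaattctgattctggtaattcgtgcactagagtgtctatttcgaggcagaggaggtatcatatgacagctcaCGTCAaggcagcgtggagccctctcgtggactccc
Ngfr: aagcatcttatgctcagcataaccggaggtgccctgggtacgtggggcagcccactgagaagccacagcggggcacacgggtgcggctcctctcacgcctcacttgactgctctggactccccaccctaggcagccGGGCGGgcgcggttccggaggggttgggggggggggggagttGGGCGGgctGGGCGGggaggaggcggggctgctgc

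After contusion, Gdnf and Ngfr rose and Bdnf, Ntrk2 and Ntrk3 fell, whereas Ret and Gfra1 stayed inside both limits. This comparison asked what injury did to the cord by day 7. A gene was counted as changed when its log2 fold change reached 0.5 in size and its Benjamini-Hochberg adjusted p was below 0.05 in edgeR's quasi-likelihood test over 18699 genes. By that rule 5 of the 8 genes changed, 2 upward and 3 downward, beside 47.0% of all genes tested (24.4% higher, 22.5% lower), so a call after injury was common across the transcriptome. In 3 of 3 SCI mice each of the 5 lay beyond all 3 Sham mice, which held for 70.5% of all genes tested. Ntf3 was too low to test. With 3 mice against 3, the exact permutation test cannot give a two-sided p below 0.1, and it gave 0.1 for each of those 5 genes.

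**Figure D1:**
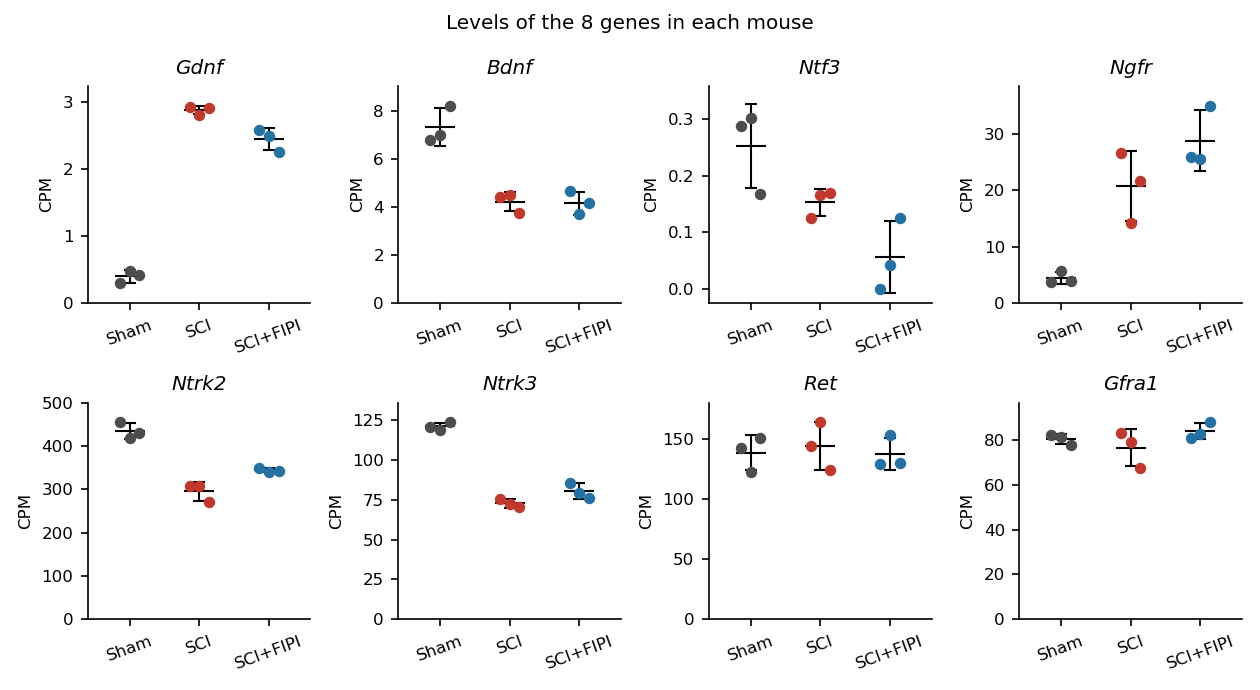
Level of each of the 8 genes in CPM (counts per 1000000 counts) in every mouse, with 1 point per mouse, a horizontal bar at the group mean and whiskers of 1 SD (n = 3 per group). Every panel has its own linear axis; the Gdnf and Ngfr points of both injured groups lie above all Sham points, the Bdnf, Ntrk2 and Ntrk3 points lie below them, and the Ret and Gfra1 points overlap.

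Among the ligands, Gdnf (chr15:7810846-7837575, GRCm38), the survival factor for motor neurons, was close to the detection limit in Sham cord, at 0.287, 0.475 and 0.418 CPM (6, 11 and 10 counts). It stood at 2.94, 2.81 and 2.91 CPM in the SCI mice (70, 68 and 69 counts). The 3 SCI mice lay almost on top of each other and far above every Sham mouse. Counts of this size vary more than that by sampling alone on average, so their closeness does not show a uniform rise between mice. The fold change was 7.20, or 2.85 ± 0.25 (SE) on the log2 scale, with an adjusted p of 1.29e-07 in edgeR. In all 19 alternative analyses Gdnf remained past both limits.

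Bdnf (chr2:109674700-109727007), the ligand of TrkB, moved the other way. It was measured at 6.80, 7.00 and 8.23 CPM in Sham mice and at 4.40, 4.51 and 3.75 CPM in SCI mice. The lowest Sham mouse was above the highest SCI mouse. The SCI level was 1.74-fold lower (log2 fold change -0.80 ± 0.15 SE, adjusted p = 0.00028, edgeR). The gene counts pool 11 annotated transcripts that start at 9 positions, so which Bdnf promoter carried the fall was not resolved. An antisense gene, Gm45346, shares 896 exonic bases with Bdnf, but it had at most 1 count in any mouse, and the strand setting of the counting is not given in the sources used here. Of the stretches of 50 bases in the longest Bdnf transcript, 10.7% match another annotated gene on either strand, overlapping antisense genes included.

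Ntf3 (chr6:126101412-126166910), which encodes the TrkC ligand neurotrophin-3, gave 6, 7 and 4 counts in Sham mice, 3, 4 and 4 in SCI mice and 0, 1 and 3 in SCI+FIPI mice. Those values sit at or near the limit that a count of 0 allows, 3 counts, which was 0.134 CPM in the SCI+FIPI mouse without a count. The gene was removed by the filter on low counts, no fold change is given, and the depth limits what the comparison can show. The SCI+FIPI mice lay below all 3 Sham mice (exact permutation test, two-sided p = 0.1, the smallest possible), whereas the SCI mice overlapped both other groups.

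Among the receptors, Ngfr (chr11:95568818-95587735), which encodes p75, showed the second large rise. The 3 Sham mice were at 3.74, 5.57 and 3.89 CPM and the 3 SCI mice at 26.6, 14.2 and 21.6 CPM. The groups were far apart, but the SCI mice differed among themselves, with a coefficient of variation of 30.1% against 23.2% in Sham mice. The fold change was 4.71 (log2 2.24 ± 0.28 SE, adjusted p = 0.000135, edgeR). p75 is strongly expressed by Schwann cells that have lost their axon, and a list of 9 Schwann cell markers was read beside it. Their summed level was 256 to 512 CPM in Sham mice and 478 to 596 CPM in SCI mice, 3 of the 8 tested markers rose and none fell, and 1 (Pmp2) had at most 1 count in any mouse. Within the SCI group the mouse with the lowest Ngfr, SCI 2, also had the lowest Schwann cell sum, 478 CPM. Sham 2 had a higher sum, 512 CPM, at an Ngfr of 5.57 CPM. The part of Schwann cells in the rise of Ngfr was not tested.

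Ntrk2 (chr13:58806569-59133970), the TrkB gene, was read at 455, 419 and 429 CPM in Sham mice. It was read at 308, 308 and 270 CPM in SCI mice. No SCI mouse reached the lowest Sham mouse. The difference was modest in size, at -0.56 ± 0.07 (SE) on the log2 scale (1.47-fold lower, adjusted p = 2.84e-06, edgeR), and it sat just past the fold limit. Without SCI replicate 3 it was -0.49 and no longer past that limit. With offsets for GC content and exonic length it was -0.26, where the median over all genes moved to -0.14, and the call was lost again.

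Ntrk3 (chr7:78175959-78738012), the TrkC gene, behaved alike in direction. Sham mice gave 120.6, 119 and 124 CPM and SCI mice 75.8, 72.4 and 70.4 CPM, with the tightest Sham group of the 8 genes. The SCI level was 1.66-fold lower (log2 -0.73 ± 0.06 SE, adjusted p = 5.35e-08, edgeR). The GC and length offsets reduced the difference to -0.21 and ended this call too. Both Trk genes have very long annotated exons, 19292 bases for Ntrk2 and 30170 bases for Ntrk3, and their counts pool full-length and kinase-lacking transcripts, so the 2 forms were not separated.

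For the GDNF receptor pair neither limit was passed. Ret (chr6:118151745-118197718), the signaling kinase, was at 143, 123 and 151 CPM in Sham mice and at 145, 164 and 124 CPM in SCI mice. Gfra1 (chr19:58235604-58455909), the ligand-binding co-receptor, was at 82.4, 81.2 and 77.98 CPM in Sham mice and at 83.2, 79.3 and 67.3 CPM in SCI mice. For both genes the groups overlapped. The log2 fold change of Ret was 0.06 with a 95% interval of -0.19 to 0.30 (adjusted p = 0.685), and that of Gfra1 was -0.07 with an interval of -0.23 to 0.08 (adjusted p = 0.401, edgeR), so a change of 0.5 in either direction lay outside both intervals. With the GC and length offsets Gfra1 was at -0.23 with an adjusted p of 0.0105, still under the fold limit. Of the 50-base stretches of the longest Gfra1 transcript, 8.06% match another annotated gene on either strand, overlapping antisense genes included. The antisense gene Gm16277 shares 416 exonic bases with Gfra1 and had at most 1 count in any mouse.

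**Figure D2:**
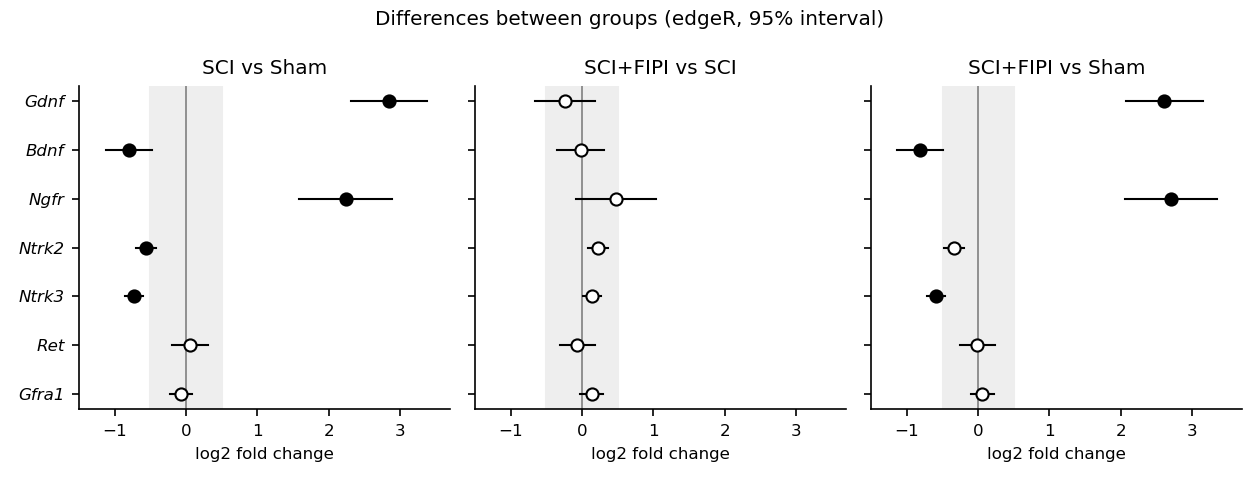
Log2 fold change of the 7 genes tested (points) with 95% intervals (lines) in 3 comparisons, from edgeR; filled points passed both limits and the grey band spans -0.5 to 0.5. Filled points number 5 for SCI against Sham, 0 for SCI+FIPI against SCI and 4 for SCI+FIPI against Sham, and the comparisons share mice with each other.

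Marker transcripts of several cell types also differed between Sham and SCI mice. All 14 neuron markers fell after injury (median -1.62 on the log2 scale), and their summed level dropped from 9269 to 10421 CPM in Sham mice to 2986 to 4132 CPM in SCI mice with no marker at 0. The neuron markers ranged from -1.96 to -0.68. The values of Bdnf (-0.80) and Ntrk3 (-0.73) lay inside that range, near its upper end, and that of Ntrk2 (-0.56) just above it. The ranges of the oligodendrocyte (-1.24 to -0.17), motor neuron (-1.99 to -0.48) and astrocyte (-0.82 to 1.22) markers held the values of Bdnf, Ntrk3 and Ntrk2 alike. Those of the macrophage and the fibroblast and pericyte markers lay above them, so the ranges do not single out a cell type. Of 8 oligodendrocyte markers 5 fell and none rose (median -0.62), and their sum went from 32706 to 34281 CPM in Sham mice to 22869 to 25535 CPM in SCI mice. For the astrocyte list the sum was 10267 to 10777 CPM in Sham mice and 13543 to 15493 CPM in SCI mice. Past both limits 3 of 10 markers were higher and 2 lower, and by sign 5 were higher and 5 lower. Gfap, the marker with the highest level, went from a mean of 4136 to 9620 CPM. Slc1a2 went from 2343 to 1331 CPM and Aldoc from 1719 to 1180 CPM. All 8 fibroblast and pericyte markers and all 8 macrophage markers rose, the former from sums of 484 to 1106 CPM to sums of 9262 to 12487 CPM and the latter from 247 to 419 CPM to 13353 to 15856 CPM. Motor neurons use Ret and GFRα1; of their 6 markers 5 fell, and the sum went from 183 to 255 CPM to 82 to 131 CPM while Ret and Gfra1 passed neither limit. The part of these shifts in the members' changes was not tested.

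Treatment with FIPI was then compared with vehicle after the same contusion, to ask whether inhibition of phospholipase D altered the injured cord at day 7. None of the 8 genes changed by both limits, beside 3.06% of all genes tested (2.36% higher, 0.695% lower). In edgeR, 2 of the 7 tested genes had an unadjusted p below 0.05 (Ntrk2 and Ntrk3), beside 25.2% of all genes, and 1 of these, Ntrk2, an adjusted p below 0.05, beside 9.63% of all genes by that limit alone. DESeq2 and limma-voom also called 0 by both limits. For 3 genes the 3 treated and 3 vehicle mice did not overlap, which held for 30.2% of all genes tested.

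The 3 genes without overlap were Ntrk2, Ntrk3 and Gdnf. Ntrk2 was at 350, 341 and 343 CPM in SCI+FIPI mice, between the SCI mice (270 to 308 CPM) and the Sham mice (419 to 455 CPM). Its log2 difference from SCI was 0.22 ± 0.07 (SE), with a 95% interval of 0.08 to 0.36 and an adjusted p of 0.0475 (edgeR), which was under the fold limit; over the alternatives the adjusted p ran from 0.0148 to 0.176. Ntrk3, at 85.9, 79.05 and 76.2 CPM, also lay between the other groups (log2 0.14 ± 0.06, adjusted p = 0.152). Gdnf was 2.59, 2.50 and 2.26 CPM with FIPI, slightly under every SCI mouse, with a log2 difference of -0.23, a 95% interval of -0.66 to 0.19 and an adjusted p of 0.501. At 54 to 59 counts per treated mouse, a change of that size was within the error.

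Ngfr had the widest uncertainty. SCI+FIPI mice were at 25.97, 25.5 and 35.1 CPM, overlapping the SCI range of 14.2 to 26.6 CPM. The log2 difference was 0.47 with a 95% interval of -0.08 to 1.03 (adjusted p = 0.272, edgeR), so a rise as large as 2-fold was not separated from no change. It was 0.26 without SCI replicate 2, the lowest SCI mouse, and 0.31 without SCI+FIPI replicate 3, the highest treated mouse, and it passed the test in none of the 19 alternatives (adjusted p 0.0965 to 0.524). The Schwann cell sum was 329 CPM in SCI+FIPI 1, 859 CPM in SCI+FIPI 2 and 827 CPM in SCI+FIPI 3, so the first 2 of these mice had near-equal Ngfr at unequal sums. Bdnf was at 4.65, 3.69 and 4.15 CPM with FIPI and overlapped the SCI mice, with a log2 difference of -0.02 and an interval of -0.36 to 0.31. Ret was at 129.9, 154 and 130.3 CPM and Gfra1 at 81.04, 82.8 and 87.95 CPM, with log2 differences of -0.07 (interval -0.31 to 0.18) and 0.13 (interval -0.02 to 0.29). In these mice 8 of the 14 neuron markers rose and none fell, with a summed level of 4804 to 5641 CPM. The macrophage sum was 8022 to 12685 CPM, below the SCI range of 13353 to 15856 CPM. All 8 macrophage markers were lower than in SCI mice (median -0.48 on the log2 scale), but 0 of 8 passed both limits. The part of these marker differences in the Trk values was not tested.

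Against Sham, the SCI+FIPI mice differed in ligands and receptors alike, in a comparison that shares the Sham mice with the first one and the treated mice with the second. By both limits 4 of the 8 genes changed, beside 38.1% of all genes tested (21.2% higher, 17.0% lower): Gdnf rose 6.12-fold and Ngfr 6.55-fold, while Bdnf was 1.77-fold and Ntrk3 1.51-fold lower. The log2 values were 2.61 for Gdnf, 2.71 for Ngfr, -0.82 for Bdnf and -0.59 for Ntrk3, the last being -0.18 with the GC and length offsets. Ntrk2 was at -0.33 with an adjusted p of 0.000475 (edgeR), which missed the fold limit, and at -0.11 with an adjusted p of 0.142 with those offsets. Of the 7 genes tested, 5 did not overlap between the groups, Ntrk2 among them, beside 66.3% of all genes tested, and neither did the counts of Ntf3, which was not tested. Ret (-0.01) and Gfra1 (0.06) passed neither limit.

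Levels of different genes can be set side by side only per length, so FPKM values (counts per 1000 exonic bases and per 1000000 counts) were computed from the counts. In Sham cord the mean order was Ntrk2 at 22.7, Ret at 20.7, Gfra1 at 14.8, Ntrk3 at 4.05, Ngfr at 1.29, Bdnf at 1.19, Ntf3 at 0.149 and Gdnf at 0.108 FPKM. Neighbours whose mice overlapped were Ntrk2 with Ret, Ngfr with Bdnf, and Ntf3 with Gdnf. All receptors thus stood above all ligands in mean level, although Ngfr and Bdnf overlapped. In SCI mice Ret came first at 21.1 FPKM, ahead of Ntrk2 at 15.1 and Gfra1 at 13.8 FPKM, which overlapped each other. Ngfr at 5.96 FPKM passed Ntrk3 at 2.38 FPKM, and Gdnf at 0.775 FPKM passed Bdnf at 0.670 FPKM without overlap. With FIPI, Bdnf and Gdnf had nearly equal means of 0.672 and 0.670 FPKM and overlapped, and the other genes kept the SCI order. Because the exonic length used is the union over all transcripts, the levels of Ntrk2 and Ntrk3 depend on how much of their long exons the cord transcribes.

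**Figure D3:**
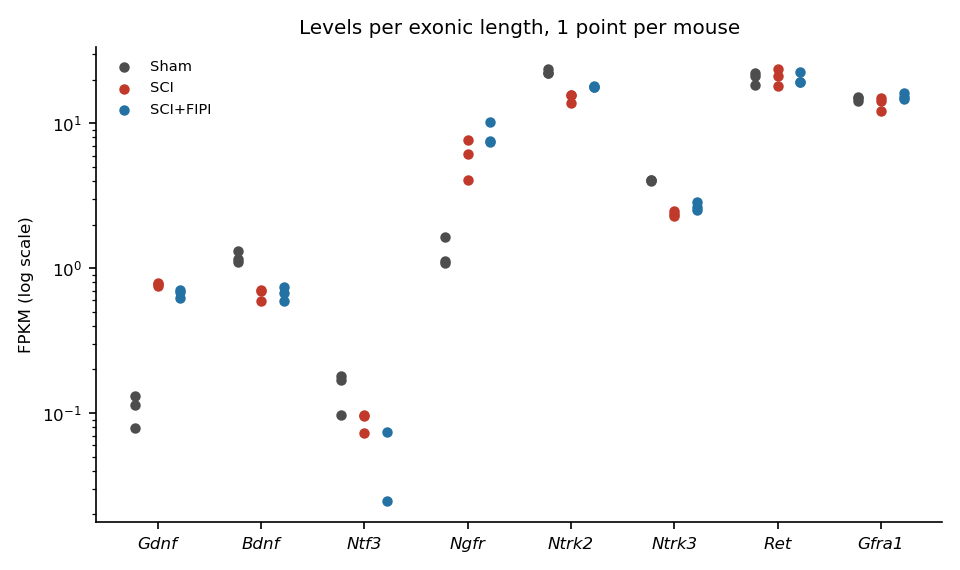
Level of each gene in FPKM, per union exonic length, on a logarithmic axis with 1 point per mouse; an Ntf3 value of 0 in 1 SCI+FIPI mouse cannot be drawn. Ntrk2, Ret and Gfra1 lie above 10 FPKM in every mouse, and Ngfr moves from near Bdnf in Sham mice to above Ntrk3 in both injured groups.

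The rest of the pathway was read from lists of ligands, receptors, adaptors, p75 partners, proneurotrophin-cleaving proteases and genes that Trk signaling induces, 68 genes with the 8 members included, of which 63 were tested. After injury 18 rose and 18 fell, beside 24.4% of all genes tested that rose and 22.5% that fell. The median difference on the log2 scale was 0.01, beside 0.00 over all genes. With FIPI against vehicle 1 rose and 1 fell, beside 2.36% and 0.695% of all genes. With FIPI against Sham 16 rose and 11 fell, beside 21.2% and 17.0%. The counts of the separate lists below are to be read beside the same shares. The 5 genes not tested were Ntf3, Ntf5, Pspn, Plg and Mmp7.

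Among the other ligands of the GDNF family, Nrtn (neurturin) rose by 0.55 after injury with an adjusted p of 0.0273, a call lost without Sham replicate 3 (0.43), without SCI replicate 1 (0.42) and with upper-quartile factors (0.48), while Artn (artemin) at 0.63 did not pass (adjusted p = 0.129, edgeR). Pspn (persephin) had 2 to 9 counts per mouse and the neurotrophin Ntf5 (neurotrophin-4) had the same range.

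The other receptors mostly fell after injury. The neurturin co-receptor Gfra2 went from a mean of 30.7 to 19.4 CPM (log2 -0.66, adjusted p = 2.48e-05), and the persephin co-receptor Gfra4 from 16.9 to 7.04 CPM (log2 -1.26, adjusted p = 6.08e-06, edgeR). Gfra3, the artemin co-receptor, had 2 to 12 counts and did not pass. The sortilin family, which binds proneurotrophins with p75 and sorts them in the cell, also went down in part: Sorcs3 fell by 1.46 and Sorcs1 by 0.94 on the log2 scale, and Sort1 by 0.51, while Sorcs2 stayed within the limits at 0.17. The Sort1 call was lost in 5 of 19 alternatives, among them the fits without Sham replicate 3 (-0.46), SCI replicate 2 (-0.50) and SCI replicate 3 (-0.46). With FIPI, Sorcs1 (0.36, adjusted p = 0.0119) and Sorcs3 (0.46, adjusted p = 0.0174) were nearer the Sham level, under the fold limit. Gfra4 rose with FIPI by 0.55 (adjusted p = 0.0467, edgeR), from 8.76, 5.95 and 6.41 CPM to 8.05, 11.2 and 11.5 CPM; the groups overlapped, and the call was lost in 11 of 19 alternatives, among them the fits without any 1 Sham mouse (0.55 each time), without SCI replicate 2 (0.44) or 3 (0.48) and without SCI+FIPI replicate 2 (0.48) or 3 (0.45).

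Among 19 adaptors, 3 rose and 5 fell after injury. Shc1, which links Trk and Ret receptors to Ras, rose by 1.78, from a mean of 30.3 to 104 CPM, and Sh2b2 by 1.48, from 12.8 to 35.6 CPM. The neuron-enriched relatives moved the opposite way, with Shc3 falling by 1.19 and Shc2 by 0.55 (-0.50 and not called without SCI replicate 2). Grb10, another docking protein of receptor tyrosine kinases, rose by 0.69. The FGF receptor substrate Frs3 fell by 0.76, the Ras activator Sos1 by 0.86 and Dok6, which had 6 to 65 counts, by 1.82 (-1.11 without Sham replicate 3). No adaptor passed both limits with FIPI.

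Of 10 p75 partners, 4 rose and 3 fell. RhoA, the small GTPase through which p75 restrains axon growth, rose by 0.92 in transcript, and its inhibitor Arhgdia, which p75 binds, by 1.13. Irak1 and Ripk2, which carry p75 signals to NF-kappa B, rose by 0.68 and 0.63, but with the GC and length offsets both missed the fold limit (0.40 and 0.44), as Ripk2 did without Sham replicate 3 (0.49). The 2 p75 co-receptors for myelin inhibitors fell, Lingo1 by 1.12 and Rtn4r by 0.90, and the p75-binding protein Bex3 fell by 0.59. Thus Ngfr rose while the transcripts of both co-receptors fell. With FIPI, Lingo1 lay at 41.1, 42.1 and 39.5 CPM against 34.2, 30.4 and 27.6 CPM in SCI mice (log2 0.41, adjusted p = 0.00844, edgeR), under the fold limit.

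Among 9 proneurotrophin-cleaving proteases, 7 were tested, 3 rose and 1 fell after injury. Furin, which cuts proneurotrophins inside the cell, went from a mean of 40.01 to 115 CPM (log2 1.53, adjusted p = 1.44e-10), and Plat, the tissue plasminogen activator that starts plasmin cleavage outside it, from 89.4 to 193 CPM (log2 1.11, adjusted p = 3.29e-07, edgeR). Mmp3 rose by 2.07, from 3 to 25 counts in Sham mice to 44 to 66 in SCI mice, and the difference was 3.25 without Sham replicate 2. Pcsk6 fell by 0.50, at the edge of the limit, and was lost in 5 of 19 alternatives, among them the fits without Sham replicate 1 (-0.44), SCI replicate 2 (-0.49) and SCI replicate 3 (-0.43). With FIPI none of these passed both limits, with Plat at -0.42 (adjusted p = 0.0165) and Furin at -0.27 (adjusted p = 0.0165, edgeR) below the SCI level.

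Of 8 genes that Trk signaling can induce, 4 rose and 1 fell after injury, and they did not move as a block. Dusp6, a phosphatase that dampens ERK, rose by 1.51, Egr2 by 2.03, Fos by 1.83 and Egr1 by 1.01, while the activity-regulated gene Arc fell by 0.92. Many other stimuli also induce these genes, Egr2 is also among the Schwann cell markers, and the Egr1 call was lost in 9 of 19 alternatives, among them the fits without Sham replicate 1, 2 or 3, SCI replicate 2 or 3 or SCI+FIPI replicate 1 (0.80 to 1.11). With FIPI, Dusp6 fell by 0.56 (adjusted p = 0.0280, edgeR), from 60.9, 82.8 and 88.7 CPM in SCI mice to 59.2, 47.0 and 51.0 CPM, without overlap. The call was lost in 7 of 19 alternatives, among them the fits without SCI replicate 2 (-0.51) or 3 (-0.46) and without SCI+FIPI replicate 2 (-0.49) or 3 (-0.55). Vgf, a BDNF-induced secreted peptide precursor, was 0.34 higher after injury and passed no fold limit in any comparison.

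**Figure D4:**
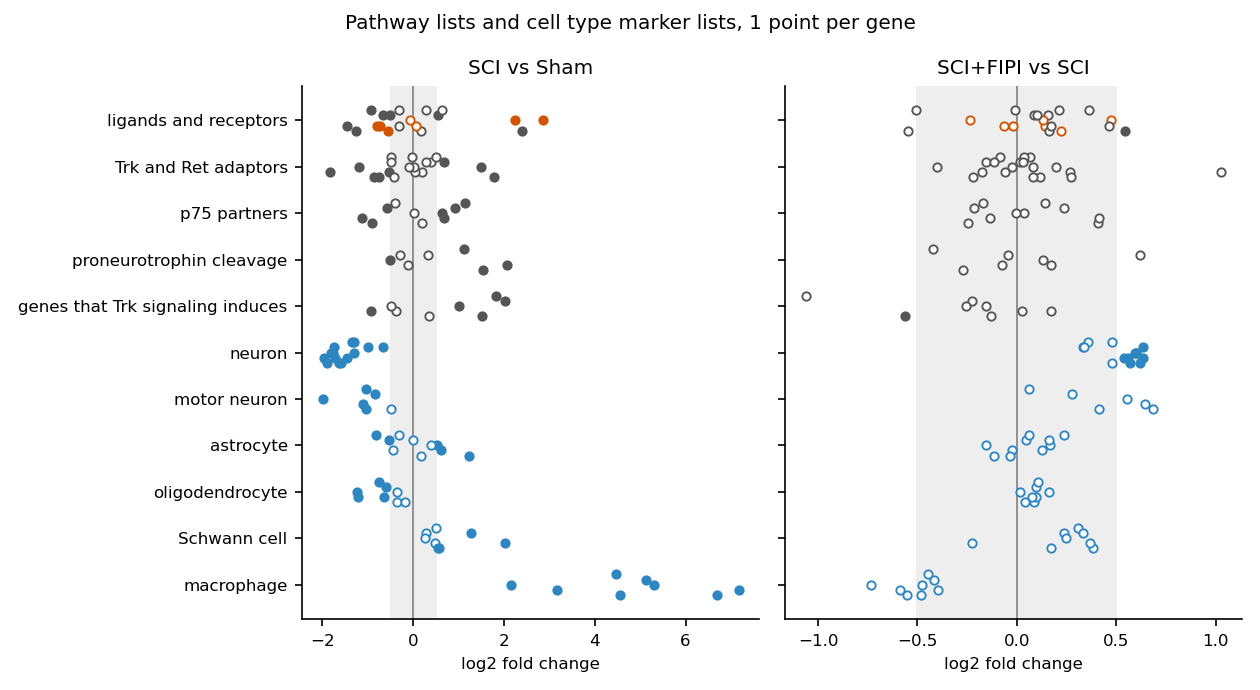
Log2 fold change of each tested gene of the pathway lists (grey, members in orange) and of 6 cell type marker lists (blue) for SCI against Sham and SCI+FIPI against SCI, on axes of different range; filled points passed both limits and the grey band spans -0.5 to 0.5. All 14 neuron markers are filled to the left after injury and 8 are filled to the right with FIPI, while the members are filled only in the left panel.

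For each tested gene the 3 most similar patterns were taken by Pearson correlation of log2 CPM over the 9 mice, among 14552 or 14553 genes, as a description that is driven by the difference between Sham and injured mice. Gdnf was most like Ccnb2 (r = 0.998), Lsp1 (0.998) and Anpep (0.998), and Ngfr was most like Rps15 (0.984), Myct1 (0.984) and Crispld2 (0.984). Bdnf was most like Wdr59 (0.990), Zc3h13 (0.983) and Nktr (0.982). The Trk genes had separate neighbours, Camk1g (0.995), Reep2 (0.994) and Zfyve27 (0.994) for Ntrk2 and Cdc123 (0.997), Ndufa12 (0.997) and Nim1k (0.996) for Ntrk3. These 5 genes had between 1946 and 3595 genes with r above 0.9, so the likeness was widely shared. Ret and Gfra1 had 1 and 2 such genes, their nearest being Usp53 (0.923), A330048O09Rik (0.888) and Adprh (0.874) for Ret and Dirc2 (0.918), Itpk1 (0.904) and Acot11 (0.887) for Gfra1.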

How the data were processed

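Total RNA from spinal cord had been enriched with oligo(dT), fragmented and sequenced on an Illumina platform, 1 library per mouse, 9 mice. The authors trimmed the reads and deposited raw counts per Ensembl gene, 1 column per mouse; the submitters' notes name GRCm38 and R 4.2.3, and the aligner, counter and strand setting are not given in the sources used here. Totals ranged from 20806000 to 24582377 counts per mouse.

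Differences between groups were fitted to these counts with edgeR 4.0.16 under R 4.3.3 (TMM factors, filterByExpr by group, robust quasi-likelihood fit, 1 mean per group over all 9 mice), which left 18699 genes. The limits, a log2 fold change of 0.5 and an adjusted p of 0.05, are those of the study, which names no test. SEs are the log2 fold change over the square root of F, and intervals are 95%. CPM used TMM-scaled totals, and FPKM used the union of GENCODE M21 exons. DESeq2 1.42.0 and limma 3.58.1 were alternatives. The fit was also run on simulated counts in which every gene had the same dispersion and few genes changed. These settings differ from the data, so that check does not measure the error rate here. Python 3.11.15 and matplotlib 3.10.9 were used for motifs and figures. No replicates were alike within sampling noise. P-values measure the spread between these mice. Named genes were the members, the pathway lists, the markers and the 3 nearest genes of each member. The members and lists were chosen with earlier results of these data known. Some members of the lists are counted but not reported by name here.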

Additional observations from a re-analysis of the deposited data

How the results depend on the processing

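The count of members past both limits after injury was 3 in place of 5 with GC and length offsets and 3 with a replicate block and those offsets, since Ntrk2 (-0.26) and Ntrk3 (-0.21) then missed the fold limit; the offsets moved the median over all genes to -0.14 and the share of called genes that were higher from 52.1% to 41.8%. For SCI+FIPI against Sham the same offsets moved that share from 55.5% to 41.1%, the median to -0.15 and Ntrk3 to -0.18. Leaving out each mouse in turn gave 4 to 5 members after injury. For SCI+FIPI against SCI no alternative called a member; pathway genes past both limits were 2, but 0 with the replicate block, 0 with block and offsets, 0 with only the 2 groups fitted, 1 with limma-voom and 0 to 6 without each mouse, and all genes were 572, from 189 without SCI+FIPI replicate 2 to 1038 without SCI replicate 1, 341 without SCI replicate 2 and 240 without SCI replicate 3. The causes were not tested.

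Replicate numbers do not pair different animals (same-number correlations -0.07 to 0.11, 1 of 9 above 0.1), and the block alone left 5, 0 and 4 members called in the 3 comparisons.

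Values near 0 that changed sign were never called. Ret after injury was -0.0093 with upper-quartile factors, -0.10 with offsets, -0.11 with block and offsets and -0.044 to 0.16 without each mouse in turn; Gfra1 after injury ran from -0.14 to 0.017 without each mouse and was -0.23 with offsets, with or without the block. Against SCI, without each mouse, Bdnf with FIPI ran from -0.11 to 0.059 and Ret from -0.16 to 0.036. Against Sham, Ret with FIPI was 0.0059 without the filter, 0.0040 with only the 2 groups and -0.094 to 0.056 without each mouse, and Gfra1 was -0.087 with offsets and -0.085 with block and offsets. Depth limited Ntf3, Ntf5 and Pspn.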
